A study of Mus musculus with 12 samples.

Results

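Cluster C, a retrovirally delivered group of microRNAs, was compared between mouse embryonic fibroblasts (MEFs) that were being reprogrammed with SKO and MEFs that were not. For each gene and day, the effect of cluster C without SKO (cluster C minus blank virus) was subtracted from its effect with SKO (SKO plus cluster C minus SKO plus blank virus), which gives 1 difference of differences at day 4 and 1 at day 8. The comparison uses 8 of the 12 arrays of the series: SKO with cluster C, SKO with blank virus, cluster C alone and blank virus alone, each at days 4 and 8 after the first infection. All cells were MEFs from a cross of OG2 mice, which carry a green fluorescent reporter of Oct4, with 129/sv mice. Every culture was infected with virus, kept in mouse embryonic stem cell medium and freed of feeder cells before RNA was taken. SKO is taken here as the genes Pou5f1 (Oct4), Sox2 and Klf4, since the labels say only that it stands for reprogramming. The labels do not list the microRNAs of cluster C. Titles of the arrays without SKO carry the tag Group2, so SKO and that grouping cannot be told apart, and a free-text description shared by all 12 arrays names other cells and another day, against the titles used here.

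Each condition had 1 array, so no value below has a replicate of its own. Values are the deposited log2 values, in which 1 unit is a doubling. Medians of the arrays lay between 4.98 and 5.07. Their lower quartiles spanned 3.48 to 3.68, and differences between values dimmer than that are likely to be understated. Where only the arm without SKO is that dim, its cluster C effect is compressed and the difference of differences may be too large or too small. Pou5f1 lay between 11.60 and 11.93 on the 4 arrays with SKO, against 3.35 to 3.99 on the 4 arrays without, which fits the labels. Klf4 lay between 8.63 and 8.70 with SKO, against 6.92 to 7.16 without. Probe sets cannot separate a delivered factor from the cell's own transcript.

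The cluster of Mir302 and Mir367 is a run of microRNA hairpins transcribed together in pluripotent stem cells. The 3p forms of the Mir302 microRNAs share a seed, the short stretch that pairs with target messages, with other stem cell microRNAs, while Mir367 has its own. The cluster is known to raise the yield of reprogramming and to help fibroblasts lose mesenchymal and gain epithelial traits. Reprogramming itself runs through an early loss of fibroblast genes and a gain of epithelial genes, and ends with the cells' own pluripotency network becoming active.

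Probe sets for Mir302a, Mir302b, Mir302c, Mir302d and Mir367 were bright on arrays with cluster C and dim on those with blank virus, and the cluster is described by them. In RefSeq (GRCm38.p6) the 5 hairpins lie on the plus strand of chromosome 3 within 580 bases, chr3:127545228-127545807. Mature forms are shown because their seeds (bases 2 to 8, in capitals) define which messages they can pair with. The sources used here did not hold miR-302a-3p, so only the 5p form of Mir302a is shown and its 3p seed was not compared.
miR-302b-3p: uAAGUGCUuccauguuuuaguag
miR-302d-3p: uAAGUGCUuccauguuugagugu
miR-302c-3p: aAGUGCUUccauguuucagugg
miR-367-3p: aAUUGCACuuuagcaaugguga
miR-302a-5p: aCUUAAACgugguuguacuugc
The seed AAGUGCU is shared by miR-302b-3p and miR-302d-3p, and that of miR-302c-3p, AGUGCUU, holds the same letters shifted by 1 base. The seed of miR-367-3p, AUUGCAC, is a different one. The 5p forms of Mir302b, Mir302c and Mir302d share the seed CUUUAAC.

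The microRNAs themselves had the only differences that passed the test. At day 4, Mir302b was at 7.08 with SKO plus cluster C and at 1.51 with SKO plus blank virus, against 5.82 with cluster C alone and 1.74 with blank virus alone. At day 8 it was at 7.15 with SKO plus cluster C and at 1.77 with SKO plus blank virus, against 2.86 and 1.63 in the cultures without SKO. The cluster C signal was thus high in both arms at day 4, and at day 8 it was high with SKO and closer to the blank virus level without it. In the other members, too, the array with SKO plus cluster C was the highest on each day, while the order of the 3 lower arrays varied. Mir302a was at 6.19 with SKO plus cluster C at day 8 and at 2.02 with SKO plus blank virus, against 2.11 with cluster C alone and 1.55 with blank virus alone. Mir367 was at 4.81 and 1.69 with SKO, against 2.02 and 1.85 without. On the day 8 array with cluster C alone, all 5 microRNA probe sets were below that array's lower quartile of 3.60, as the plot of microRNA levels shows.

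**Figure D1:**
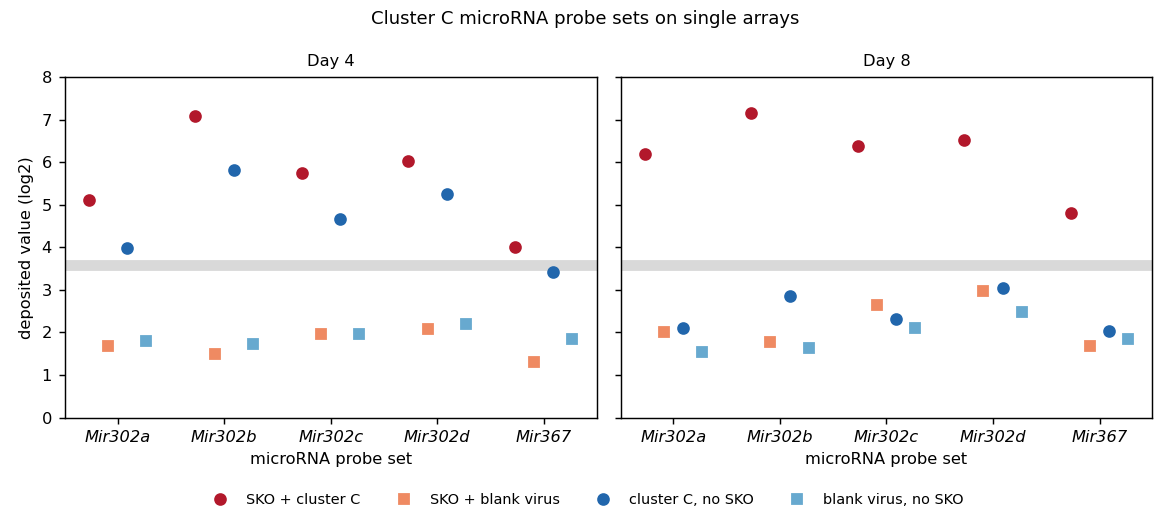
Deposited log2 value (vertical axis) of 5 microRNA probe sets (horizontal axis) at day 4 and day 8, with 1 point per array. Circles are cluster C and squares blank virus, in red shades with SKO and blue shades without, and the grey band spans the lower quartiles of the 12 arrays (3.48 to 3.68). At day 8 the circles without SKO lie below the band, between 2.02 and 3.03.

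The differences of differences of these microRNAs were at least 0.90 at day 4 and 2.94 to 4.16 at day 8. In the limma fit by day, the cluster C effect at day 8 was estimated as higher with SKO than without by 3.96 ± 0.31 (SE) for Mir302b and by 3.53 ± 0.27 for Mir302a (adjusted p = 0.0388 for both). The SE and p come from arrays with cluster B or blank virus, on which these probe sets are dim, and 3 of the 4 day 8 values lie below the lower quartile, so they do not measure the spread of the cluster C signal and the size is approximate. These were the only 2 of 19938 genes past an adjusted p of 0.05, which is 0.01% of those tested, and none was lower. Mir302c, Mir302d and Mir367 had day 8 estimates of 3.32 ± 0.35, 2.97 ± 0.28 and 2.86 ± 0.27, each with an adjusted p of 0.078. The call is not firm: no gene passed at day 8 after quantile normalization, or after leaving out either blank virus array of the arm without SKO, either cluster B array of that arm, or the day 8 array with SKO plus blank virus. Over those and the other settings tried, the estimate for Mir302b stayed between 3.66 and 4.06 and that for Mir302a between 3.25 and 3.62. Leaving out the day 4 blank virus array or either cluster B array of the arm without SKO amounts to the same fit, so these are not separate checks. The probe sets cannot separate delivered microRNAs from those of the cells' own genes, nor mature forms from longer transcripts. Because the microRNA signal itself differed between the arms, for every gene below a different response to cluster C and a different amount of cluster C cannot be told apart.

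For the mean of both days, 0 of 19938 genes passed in either direction (limma, smallest adjusted p = 0.759), and 1155 had an unadjusted p under 0.05, which is 5.79% of the genes. Leaving out the day 4 array with cluster C alone brought 5 past the threshold, Mir302a to Mir302d and Mir367. At day 4, 0 genes passed (smallest adjusted p = 0.545, 1174 at an unadjusted p under 0.05), and 0 passed for a difference between the days (smallest adjusted p = 0.705, 1036 unadjusted). Apart from the microRNA calls above, the gene values that follow are therefore descriptions of single arrays. Over all genes the difference of differences had a median of -0.01 at both days, with SDs over genes of 0.375 at day 4 and 0.383 at day 8. The effect of cluster C at a single day had an SD of 0.284 on both days with SKO, against 0.256 at day 4 and 0.266 at day 8 without. The 2 days were weakly related: across genes, which are not independent replicates, the day 4 and day 8 values had a Pearson r of 0.08, or 0.15 over the 11356 genes that reached the all-gene median of 5.32 on at least 1 of the 8 arrays.

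A difference of differences of at least 1 log2 unit was seen at day 4 in 169 genes above 0 (0.848%) and 162 below (0.813%). By day 8 it was seen in 238 genes above 0 (1.19%) and 109 below (0.547%). Only 18 genes were past 1 unit above 0 on both days and 1 below. Differences of at least 1.5-fold in the same direction on both days were found for 147 genes above 0 (0.737%) and 99 below (0.497%), of which 48 and 38 reached the all-gene median on an array. Among the 238 higher genes of day 8, the larger of the 2 cluster C effects was the one with SKO in 138, and among the 109 lower ones in 51. At day 4 it was the one with SKO in 105 of the 169 higher and 71 of the 162 lower genes. The same share over all genes was not computed, so these counts only describe the genes counted.

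**Figure D2:**
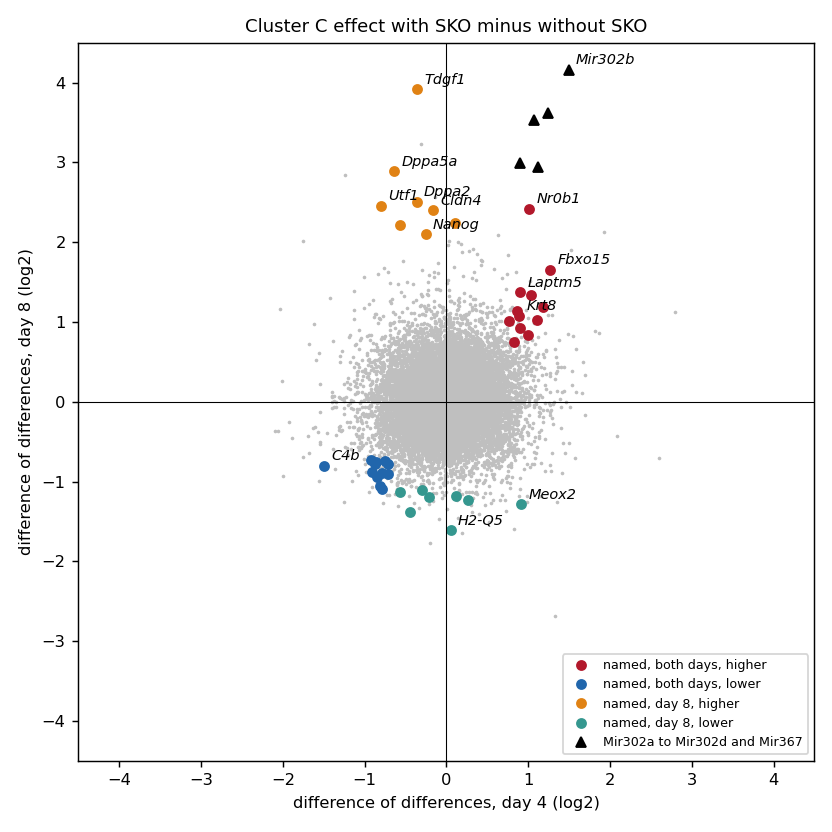
Difference of differences at day 4 (horizontal) and day 8 (vertical), in log2 units, for 19938 genes as grey points. Coloured points are named genes, chosen by these values, and triangles the 5 microRNAs. Tdgf1 (3.92 at day 8) and Dppa5a (2.89) stand high on the vertical axis while below 0 at day 4.

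Genes with higher values on both days included stem cell and epithelial genes. Fbxo15, an F-box gene used as a marker of pluripotent cells, was at 5.61 with SKO plus cluster C and 4.44 with SKO plus blank virus at day 4, against 2.85 and 2.95 in the cultures without SKO. At day 8 it was at 7.87 and 6.98 with SKO, against 2.67 and 3.44 without. Its differences of differences were 1.27 and 1.65, and the mean of 1.46 ± 0.27 (SE) missed the threshold (limma, adjusted p = 0.759). Fbxo15 was thus higher on the 4 arrays with SKO, and highest on each day with cluster C. Its 4 values without SKO lay below the lower quartiles of their arrays, so their order cannot be read.

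Nr0b1, which encodes DAX1, a nuclear receptor of the stem cell network, was at 5.22 with SKO plus cluster C at day 4 and 4.47 with SKO plus blank virus, against 3.54 with cluster C alone and 3.80 with blank virus alone. By day 8 it was at 7.35 and 4.45 with SKO, against 3.71 and 3.23 without. The day 8 array with SKO plus cluster C stood above the other 7. Its differences of differences were 1.02 and 2.42, and its day 8 estimate of 2.50 ± 0.30 had an adjusted p of 0.156. Krt8, a keratin of simple epithelia, was at 7.18 and 6.57 with SKO at day 4, against 5.99 and 6.28 without, and at 8.82 and 7.94 with SKO at day 8, against 6.25 and 6.45 without. Its differences were 0.89 and 1.08.

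Laptm5, a lysosomal membrane protein known from blood cells, was at 7.50 with SKO plus cluster C and 6.37 with SKO plus blank virus at day 4, against 5.38 and 5.15 without SKO. At day 8 it was at 7.40 and 6.35, against 5.47 and 5.79. Both arrays with SKO plus cluster C lay above the other 6. Of 33 measured leukocyte markers, 18 were above 0 at day 8 and 10 at day 4, against 48.7% and 49.0% of all genes, with list medians of 0.03 and -0.21. Ptprc, which marks leukocytes in general, was at 4.00 with SKO plus cluster C at day 8 and 3.86 with SKO plus blank virus, against 4.25 and 4.41 without.

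The other genes named as higher on both days were Nsmce3, a subunit of the SMC5/6 complex (1.18 and 1.19), Sprr2b, an epidermal envelope protein (1.03 and 1.34), Rnf125, a ubiquitin ligase (1.11 and 1.02), S1pr1, a sphingosine phosphate receptor (0.90 and 0.93), Glrx3, a glutaredoxin (0.86 and 1.14), Polr3g, a subunit of RNA polymerase III (1 and 0.84), Elovl4, an elongase of very long fatty acids (0.76 and 1.01), and the zinc finger gene Zkscan2 (0.83 and 0.74). In several of these the value came from the arm without SKO as well. Nsmce3 was at 6.62 with SKO plus cluster C and 6.34 with SKO plus blank virus at day 4, against 5.72 with cluster C alone and 6.62 with blank virus alone. The cluster C effect of the 12 genes at day 4 was above 0 with SKO in 12, and without SKO it was below 0 in 11. By day 8 it was likewise above 0 with SKO in 12 and below 0 without in 11. Because the genes were chosen by these differences, the counts only describe them.

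Genes lower on both days included matrix, muscle and signalling genes. C4b, a complement component, was at 3.85 with SKO plus cluster C and 4.42 with SKO plus blank virus at day 4, against 4.91 and 3.99 without SKO. At day 8 it was at 5.72 and 5.94 with SKO, against 6.20 and 5.62 without. C4b was thus lower with cluster C than with blank virus where SKO was present and higher where it was not, with differences of -1.49 and -0.80 (mean -1.15 ± 0.22, limma adjusted p = 0.759).

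Sfrp2, a secreted modulator of Wnt signalling, was at 7.76 with SKO plus cluster C and 8.45 with SKO plus blank virus at day 4, against 7.38 and 7.20 without SKO, and at 8.22 and 8.72 at day 8, against 9.78 and 9.53. Abi3bp, a matrix-associated protein, was at 5.49 and 5.98 with SKO at day 4, against 8.42 and 8.20 without, and at 4.67 and 5.29 at day 8, against 9.11 and 8.83. For Abi3bp, the gap between the arms was several times the cluster C effect in either. Lmod1, an actin-binding protein of smooth muscle, was at 4.51 and 5.13 with SKO at day 4, against 6.18 and 5.93 without, with differences of -0.88 and -0.78.

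The remaining genes named as lower on both days were Tbxa2r, the thromboxane receptor (-0.91 and -0.88), the transcription factors Pax8 (-0.84 and -0.95) and Nkx2-9 (-0.92 and -0.73), Med4, a Mediator subunit (-0.81 and -1.06), Clca3a2 (-0.79 and -0.89), Itgb8, the integrin that activates latent TGF-beta (-0.79 and -1.09), Rdh5, a retinol dehydrogenase (-0.76 and -0.74), and Casp4, an inflammatory caspase (-0.72 and -0.78). Med4 was at 5.49 with blank virus alone at day 8, and between 6.29 and 6.89 on the other 7 arrays, so 1 array set much of its day 8 value. In the fit of both days, adjusted p ran from 0.759 to 0.874 over the 12 lower genes and from 0.759 to 0.833 over the 12 higher ones.

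At day 8 the 8 genes named for the largest positive differences, which leaves out microRNAs, predicted genes, dim genes and those already named, were pluripotency and epithelial genes that stood high on the array with SKO plus cluster C. Tdgf1, which encodes Cripto, a co-receptor of Nodal, was at 9.37 with SKO plus cluster C and 5.61 with SKO plus blank virus, against 3.80 with cluster C alone and 3.96 with blank virus alone. At day 4 it was at 3.82 and 3.73 with SKO, against 4.10 and 3.65 without. Its difference of differences was 3.92 at day 8 and -0.36 at day 4, and its day 8 estimate of 3.55 ± 0.49 had an adjusted p of 0.258. Its 4 values at day 4 thus lay within 3.65 to 4.10.

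Dppa5a, an RNA-binding protein of stem cells, was at 10.22 with SKO plus cluster C at day 8 and 6.61 with SKO plus blank virus, against 4.12 and 3.40 without SKO. Dppa2, which works with Dppa4 at early embryonic promoters, was at 5.37 with SKO plus cluster C and 3.32 with SKO plus blank virus, against 2.84 and 3.30 without. Utf1, a chromatin factor of stem cells, was at 5.96 and 3.63 with SKO, against 4.56 and 4.68 without. Of these, Dppa2 came nearest to the threshold, with a day 8 estimate of 2.44 ± 0.25 and an adjusted p of 0.078. Its day 8 values other than that with SKO plus cluster C lay below the lower quartiles of their arrays. The SE comes from arrays with cluster B or blank virus, so it does not measure the spread where Dppa2 was high. Dppa5a (3.07 ± 0.43) had an adjusted p of 0.261 and Utf1 (1.80 ± 0.72) one of 0.957.

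Nanog, a core transcription factor of the pluripotency network, was at 8.08 with SKO plus cluster C at day 8 and 6.34 with SKO plus blank virus, against 5.35 with cluster C alone and 5.72 with blank virus alone. At day 4 its 4 values lay between 4.95 and 5.37. Sox2, which is also 1 of the delivered factors, was at 7.55 and 5.77 with SKO at day 8, against 4.71 and 5.18 without. At day 4 it was at 5.34 and 5.47 with SKO, against 4.55 and 4.78 without, a far smaller gap between the arms than that of Pou5f1. The differences at day 8 were 2.10 for Nanog and 2.25 for Sox2. The day 8 estimates in limma were 1.78 ± 0.50 and 2.13 ± 0.27, with adjusted p of 0.915 and 0.188.

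Epithelial genes stood beside them. Cldn4, a tight junction claudin, was at 7.24 with SKO plus cluster C at day 8 and 5.39 with SKO plus blank virus, against 4.62 and 5.16 without SKO. Krt18, the keratin that pairs with Krt8, was at 7.40 and 5.97 with SKO, against 4.81 and 5.59 without. In both, cluster C went with a higher value where SKO was given and a lower one where it was not. Their differences were 2.40 and 2.21 at day 8 and -0.16 and -0.57 at day 4 (day 8 adjusted p of 0.957 for Cldn4 and 0.894 for Krt18).

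Genes lower at day 8 had smaller differences. H2-Q5, an MHC class I gene, was at 4.20 with SKO plus cluster C and 5.82 with SKO plus blank virus, against 4.87 and 4.88 without SKO. Its difference was -1.61, and its day 8 estimate in limma of -1.51 ± 0.26 had an adjusted p of 0.563. Meox2, a mesodermal homeobox gene, was at 7.18 and 7.85 with SKO, against 5.84 and 5.23 without, with a difference of -1.29 at day 8 and 0.91 at day 4. The others were H2aw, a histone (-1.38), Npy2r, a neuropeptide Y receptor (-1.23), Plaat3, a phospholipase and acyltransferase (-1.19), Bdkrb1, a bradykinin receptor (-1.18), Ankrd44, a subunit of a protein phosphatase complex (-1.13), and Slc22a5, the carnitine transporter (-1.10). Bdkrb1 was at 2.86 with SKO plus cluster C and 4.27 with SKO plus blank virus, against 6.18 and 6.41 without SKO, so both values with SKO were the lower ones. Probe sets of H2-Q5, H2aw, Sprr2b, Dppa5a and Clca3a2 may also pick up near-identical relatives, so these values are uncertain as to the gene.

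Beyond the genes already named, those with the largest values at day 4 held none of the 43 listed pluripotency genes. Zfp874b, a zinc finger gene, was at 5.21 with SKO plus cluster C and 4.39 with SKO plus blank virus, against 4.02 with cluster C alone and 5.80 with blank virus alone, with a difference of 2.60 at day 4 and -0.70 at day 8. Cd24a, a surface glycoprotein of epithelial and progenitor cells, was at 7.38 and 6.66 with SKO at day 4, against 5.70 and 6.37 without, with differences of 1.40 and 0.44. Rnf208, a ubiquitin ligase, was at 5.07 and 5.43 with SKO, against 4.90 and 3.21 without, with differences of -2.03 and 1.16. For Zfp874b and Rnf208 the larger of the 2 cluster C effects was the one without SKO. Rnf208 was at 3.21 with blank virus alone at day 4 and at 3.98 or more on every other array used, so 1 array set much of its day 4 value.

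The other higher genes of day 4 were Timm21, a mitochondrial import factor (1.53), the histone H2ac4 (1.36), Chml, which escorts Rab proteins (1.36), Pdhb, a subunit of pyruvate dehydrogenase (1.34), Tubb3, a neuronal tubulin (1.30), and Mrps16, a mitochondrial ribosomal protein (1.30). Lower were Fgf23, the phosphate hormone (-1.69), Mrc1, the macrophage mannose receptor (-1.60), Nrarp, a feedback inhibitor of Notch (-1.60), Smad9, a mediator of BMP signalling (-1.57), the chemokine Cxcl15 (-1.56), Spata2 (-1.54) and Rsl1, a zinc finger repressor (-1.46). For Nrarp (3.35) and Fgf23 (3.99) the day 4 array with blank virus alone was the lowest of the 8. At day 8, 5 of the 8 higher genes were above 0 (48.7% of all genes) and 5 of the 8 lower ones below (51.3%). Day 8 entered this choice by the leaving out of genes already named for both days, such as C4b (-1.49 at day 4). Adjusted p at day 4 ran from 0.770 to 0.880 over these 16 genes.

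Gene lists were then read as counts and medians, with no test of a list. Of 43 measured pluripotency genes, 39 had a difference above 0 at day 8, where 48.7% of all genes did, and 24 at day 4, where 49.0% did. The list median was 0.68 at day 8 and 0.04 at day 4, against -0.01 over all genes on both days. At day 8, 15 of the 43 were past 1 log2 unit (1.19% of all genes), and 2 were at day 4 (0.848%), Fbxo15 and Nr0b1. In the day 8 fit 22 of the 43 were higher at an unadjusted p under 0.05, where 2.80% of all genes were, and 0 passed after adjustment. The median effect of cluster C on the list at day 8 was 0.58 with SKO and -0.03 without. Some of these genes were known to be high in these data when the list was made, so the list is no independent evidence.

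**Figure D3:**
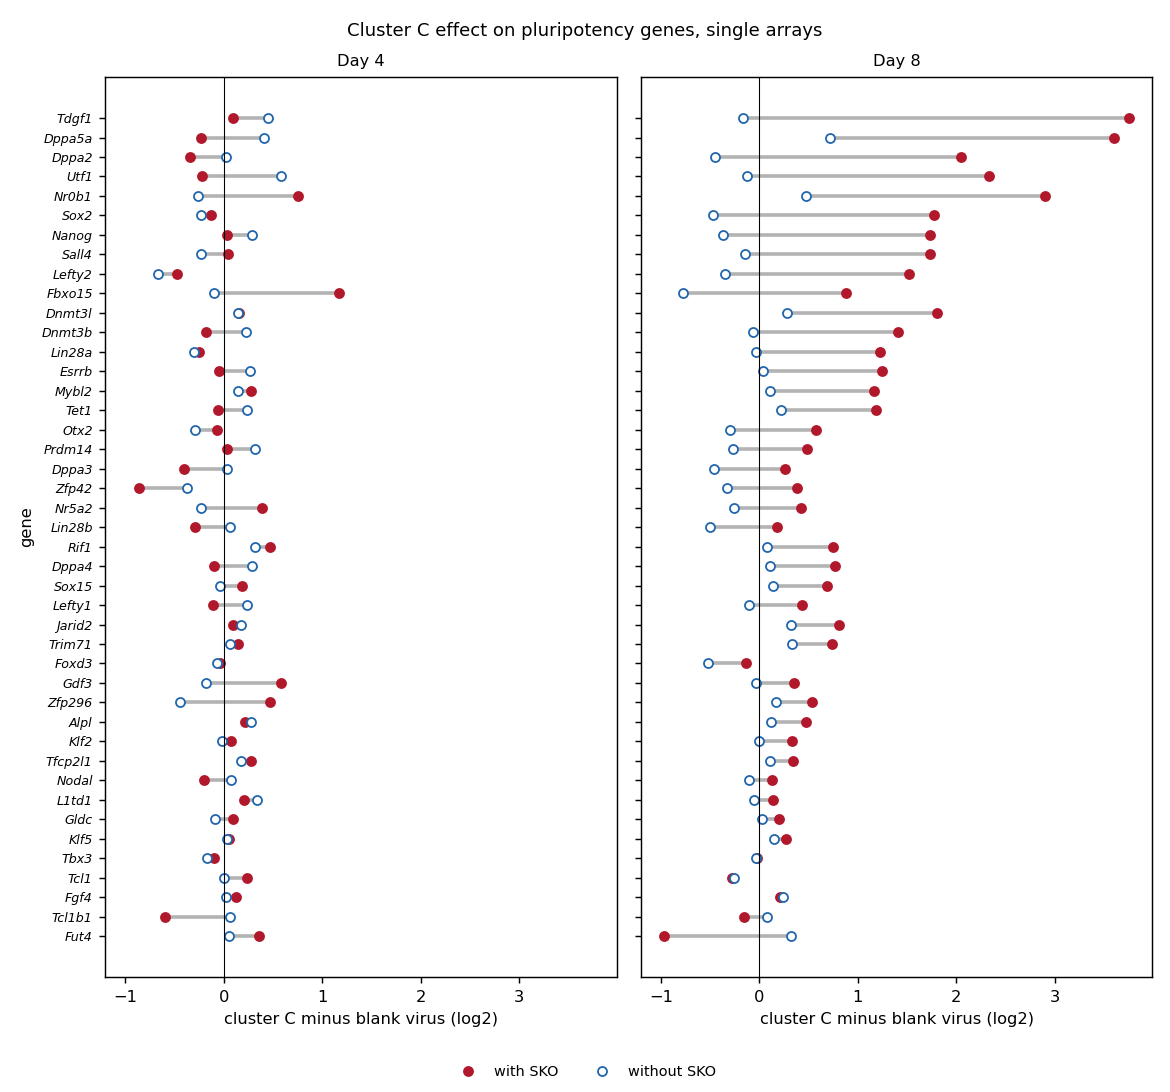
Effect of cluster C (cluster C minus blank virus, log2, horizontal axis) on 43 pluripotency genes at day 4 and day 8, ordered by the day 8 difference of differences. Filled red points are with SKO and open blue points without, and the grey line between them is the difference of differences. At day 8 the red point lies to the right for 39 genes.

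Below the genes already described, Sall4, a zinc finger factor of stem cells, was at 6.24 with SKO plus cluster C at day 8 and 4.51 with SKO plus blank virus, against 4.24 and 4.39 without SKO. Lefty2, a secreted inhibitor of Nodal, was at 5.01 and 3.49 with SKO, against 3.40 and 3.74 without. Esrrb, an orphan nuclear receptor of the naive network, was at 5.28 and 4.03, against 3.89 and 3.85. These genes were close to the same level on the other 3 day 8 arrays and stood out on the array with SKO plus cluster C. Lin28a, which blocks the maturation of let-7, had differences of 0.05 at day 4 and 1.26 at day 8.

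Other stem cell genes had smaller differences. L1td1 was at 7.92 with SKO plus cluster C at day 8 and 7.78 with SKO plus blank virus, against 4.36 and 4.42 without SKO, so it was high with SKO whatever the virus, with a difference of 0.20. Tfcp2l1, a naive-state factor, was at 7.49 and 7.15 with SKO, against 4.59 and 4.48 without (0.23). Gdf3, Zfp296 and Nr5a2 had differences of 0.77, 0.91 and 0.62 at day 4 and 0.38, 0.37 and 0.68 at day 8. Fut4, which makes the SSEA-1 sugar epitope, was lower at day 8, at -1.29, and Zfp42, known as Rex1, was at 5.17 with SKO plus cluster C and 4.78 with SKO plus blank virus, against 3.24 and 3.57 without.

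Genes of DNA methylation and chromatin were split within their list. Of 40 measured, 23 were above 0 at day 8, where 48.7% of all genes were, and 17 at day 4, where 49.0% were. The medians were 0.09 and -0.02, so the list as a whole lay close to all genes. At day 8, 3 members were past 1 log2 unit (1.19% of all genes), and these are named first. Dnmt3l, a cofactor of de novo methylation, was at 5.34 with SKO plus cluster C at day 8 and 3.53 with SKO plus blank virus, against 3.76 and 3.47 without. Dnmt3b, a de novo methyltransferase, was at 5.98 and 4.57 with SKO, against 4.65 and 4.72 without, and Hells, a helicase needed for methylation, had a day 8 difference of 1.12. Mbd1 (-0.77) and Ehmt1 (-0.47) lay at the other end.

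Of 43 measured epithelial adhesion and tight junction genes, 38 were above 0 at day 8 and 22 at day 4, with medians of 0.42 and 0.10. All genes had 48.7% above 0 at day 8 and 49.0% at day 4. At day 8, 10 of the 43 were past 1 log2 unit and none below -1, against 1.19% and 0.547% of all genes. The median effect of cluster C on the list was 0.41 with SKO and -0.07 without at day 8. Cldn6, a claudin of early epithelia, had differences of 0.52 and 1.13, and Cldn3 of -0.16 and -0.24. Of 29 keratinocyte genes, 20 were above 0 at day 8, with a median of 0.28, and 8 of the 29 were dim on all 8 arrays. On each day 2 members were past 1 log2 unit, and at day 8 1 was below -1. Dsg3, a desmosomal cadherin, had differences of 0.96 at day 4 and 0.76 at day 8. Tgm1, the transglutaminase of the cornified envelope, had 0.62 and 0.73.

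Mesenchymal and matrix genes lay mostly below 0 on both days. Of 43 measured collagen and matrix genes, 38 were below 0 at day 4, where 51.0% of all genes were, and 41 at day 8, where 51.3% were. On both days 36 were below 0 and 0 above, against 27.9% and 25.6% of all genes. List medians were -0.28 and -0.38, and none of the 43 was past 1 log2 unit. In the fit of both days 16 of the 43 were lower at an unadjusted p under 0.05, where 2.94% of all genes were, and 0 passed after adjustment. With SKO the median effect of cluster C was -0.29 on both days, and without SKO it was 0.00 at day 4 and 0.10 at day 8.

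**Figure D4:**
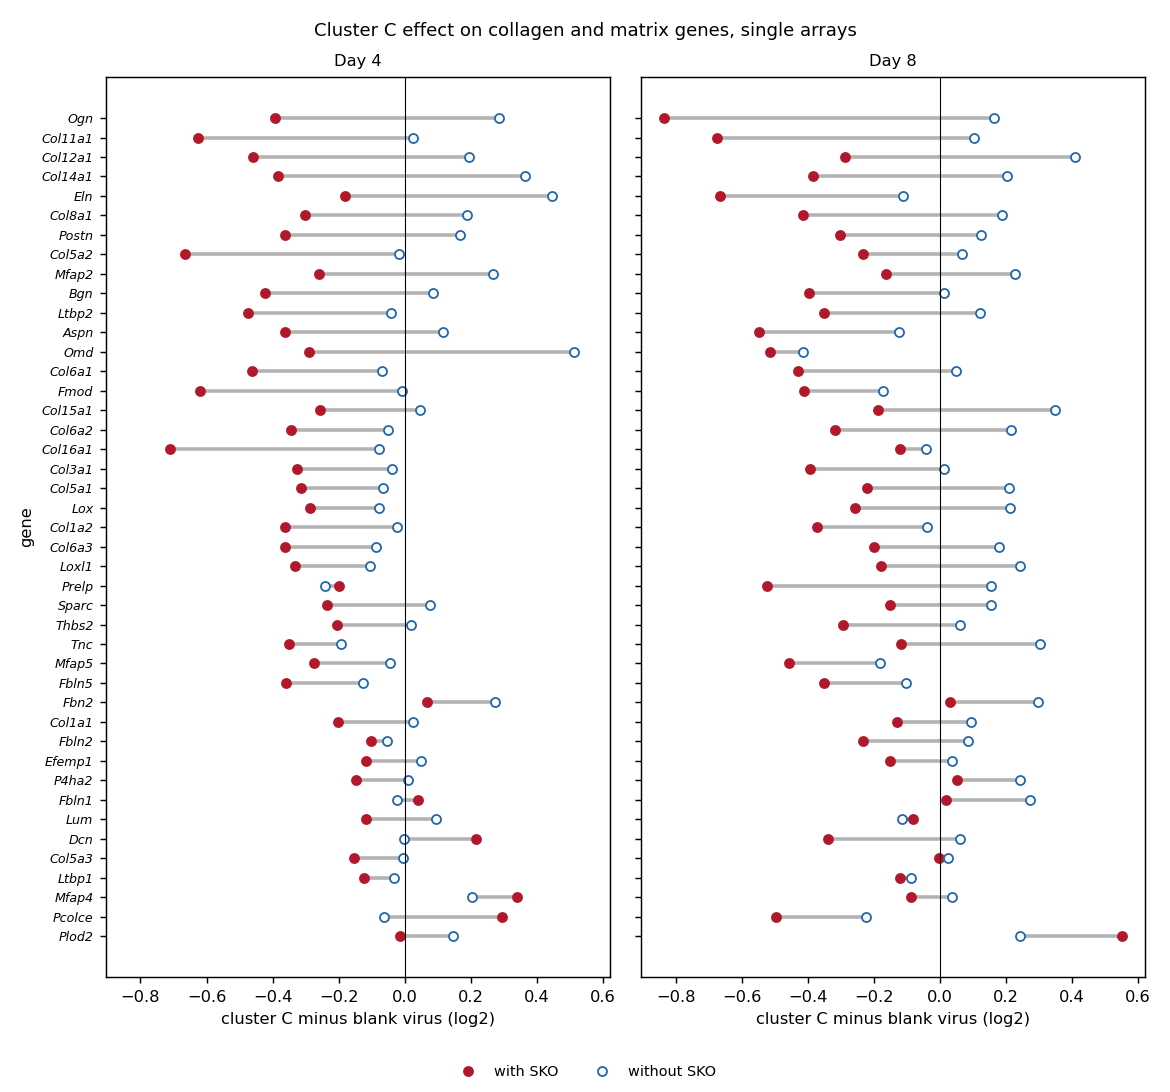
Effect of cluster C (cluster C minus blank virus, log2, horizontal axis) on 43 collagen and matrix genes at day 4 and day 8, ordered by the mean difference of differences. Filled red points are with SKO and open blue points without. The red point lies to the left for 38 genes at day 4 and 41 at day 8.

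Ogn, a small leucine-rich proteoglycan, was at 7.03 with SKO plus cluster C and 7.42 with SKO plus blank virus at day 4, against 10.06 and 9.77 without SKO. By day 8 it was at 7.94 and 8.77 with SKO, against 10.45 and 10.28 without. Its differences were -0.68 and -0.999 (mean -0.84 ± 0.20, limma adjusted p = 0.759). Col11a1, a fibrillar collagen, was at 7.42 and 8.05 with SKO at day 4, against 8.50 and 8.48 without, and at 7.30 and 7.98 at day 8, against 8.66 and 8.55, so the cluster C effect was close to 0 where SKO was not given. Col12a1 had differences of -0.65 and -0.70. Plod2, a collagen-modifying lysyl hydroxylase, was at -0.16 and 0.31, and Pcolce, which enhances procollagen processing, at 0.36 and -0.27.

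Of 34 mesenchymal transcription factors and markers, 20 were below 0 on both days and 4 above, against 27.9% and 25.6% of all genes. The list medians were -0.20 at day 4 and -0.27 at day 8. Snai2, a repressor of epithelial genes, was at 6.85 with SKO plus cluster C and 7.05 with SKO plus blank virus at day 4, against 8.21 and 7.76 without, and at 6.95 and 7.35 at day 8, against 8.64 and 8.60. Pdgfrb, a growth factor receptor of mesenchymal cells, had differences of -0.54 on both days. Smooth and skeletal muscle markers were similar, with 16 of 26 below 0 on both days, 0 above, and medians of -0.26 and -0.23. Des, the muscle intermediate filament desmin, had differences of -1.31 and -0.35 and Myl9, a smooth muscle myosin light chain, of -0.36 and -0.88.

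Fibroblast markers were lower in the arm with SKO on both days. Their mean value was 8.95 at day 4 and 8.94 at day 8 with SKO plus cluster C, and 9.15 and 9.13 with SKO plus blank virus. Without SKO it was 9.79 and 10.15 with cluster C and 9.82 and 10.04 with blank virus. Of 15 such markers, 9 had differences below 0 on both days and 1 above, against 27.9% and 25.6% of all genes. Vim, a general mesenchymal filament, hardly differed, at 11.68 to 11.95 over the 8 arrays. In RNA from whole cultures, fewer cells of a type and less RNA per cell cannot be told apart, and this holds for the epithelial and pluripotency genes too.

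**Figure D5:**
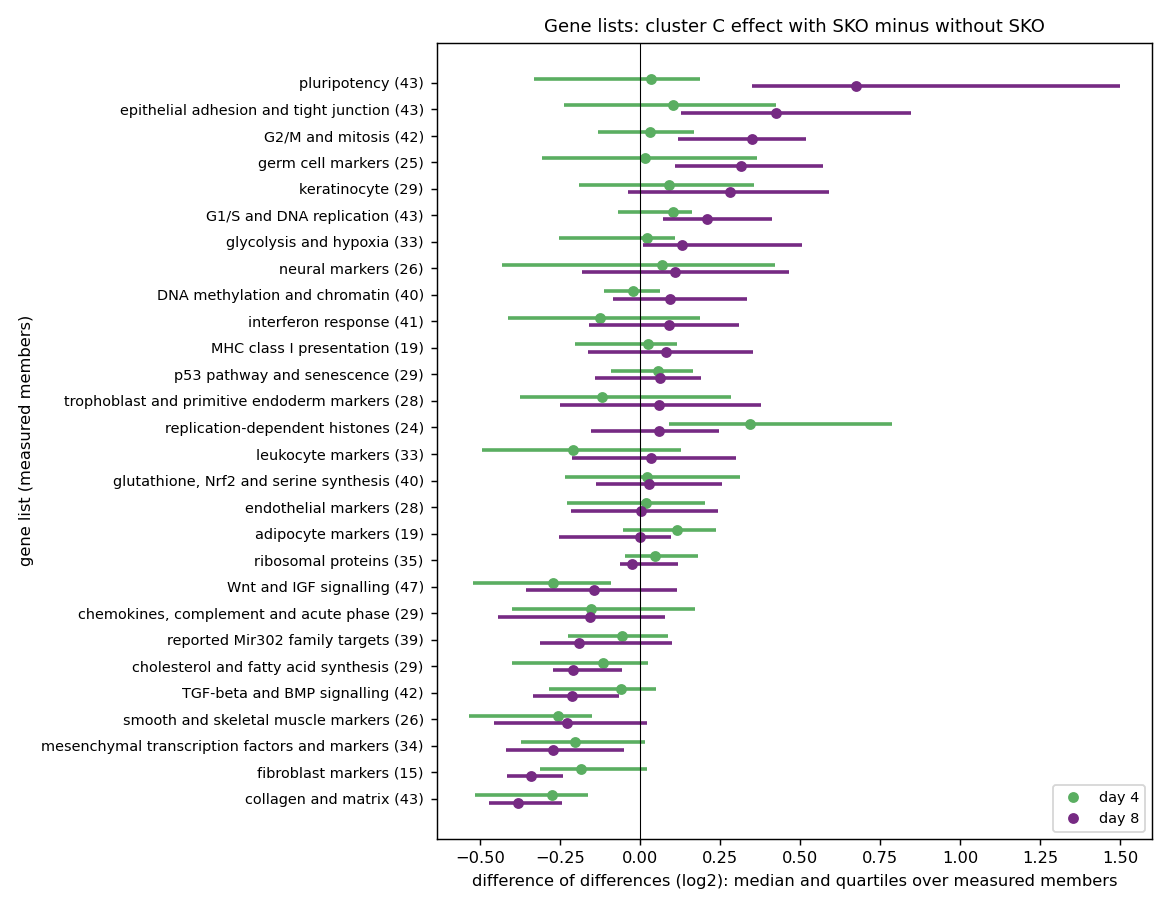
Median difference of differences (points) and quartiles (lines) over the measured members of 28 gene lists, in log2 units, at day 4 in green and day 8 in purple, with the number of members in brackets. Pluripotency (0.68) is at the top and collagen and matrix (-0.38) at the bottom at day 8.

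Signalling lists leaned below 0, Wnt and IGF genes mostly at day 4. Of 42 TGF-beta and BMP genes, 22 were below 0 on both days and 5 above, against 27.9% and 25.6% of all genes. The list medians were -0.06 at day 4 and -0.21 at day 8. Tgfb3, a TGF-beta ligand, had differences of -0.59 and -0.33, and Acvr2b, an activin receptor, of 0.60 and 0.44. Wnt and IGF genes had 41 of 47 below 0 at day 4, where 51.0% of all genes were. On both days 28 were below and 4 above, with medians of -0.27 and -0.15. Wnt2, a ligand, was at 6.11 with SKO plus cluster C and 6.34 with SKO plus blank virus at day 4, against 5.23 and 4.61 without (-0.86), and Lgr5, an R-spondin receptor, had differences of -0.64 and -0.68.

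Reported targets of the Mir302 family, a list drawn from general knowledge that includes targets found in human cells, leaned slightly below 0. Of 39 measured, 18 were below 0 on both days and 7 above, against 27.9% and 25.6% of all genes, and the medians were -0.06 and -0.19. Rb1cc1, an autophagy factor, had differences of -0.50 and -0.73, Irf2 of -0.18 and -0.87 and Mbd1 of -0.02 and -0.77. The list is mixed, since Lefty2, the highest member, was at 1.87 at day 8. Seed sites in these messages were not analysed here.

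Cell cycle genes had larger medians at day 8 than at day 4, a gap that was not tested. Of 42 mitotic genes, 38 were above 0 at day 8 and 23 at day 4, against 48.7% and 49.0% of all genes. The list medians were 0.35 and 0.03. Cdk1, the mitotic kinase, was at 7.69 with SKO plus cluster C at day 8 and 7.04 with SKO plus blank virus, against 6.96 and 7.29 without SKO, and Kif18a, a mitotic kinesin, had a difference of 1.04. The mean value of the list at day 8 was 7.14 with SKO plus cluster C and 6.76 with SKO plus blank virus, against 6.55 and 6.51 without. Of 43 genes of the G1/S step and DNA replication, 35 were above 0 at day 8, against 48.7% of all genes. This list had a median of 0.21 and was led by Cdc6, a licensing factor (0.89), and Orc1, a subunit of the origin complex (0.79).

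Replication-dependent histones had the larger median at day 4. Of the 24 measured, 22 were above 0 at day 4 and 13 at day 8, against 49.0% and 48.7% of all genes. The list medians were 0.34 and 0.06. H2bc3 was at 7.22 with SKO plus cluster C and 6.53 with SKO plus blank virus at day 4, against 5.78 and 6.07 without. Histone genes are near-identical copies, so their probe sets are not independent.

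Among metabolic genes, the transporters of sugar and lactate were the highest of their list. Slc2a3, the glucose transporter GLUT3, was at 9.19 with SKO plus cluster C at day 8 and 7.18 with SKO plus blank virus, against 5.53 and 5.54 without SKO, with a difference of 2.02 at day 8 and 0.04 at day 4. Slc16a3, a lactate exporter, had differences of 0.49 and 1.07. The 33 genes of glycolysis and hypoxia had a median of 0.13 at day 8, with 26 above 0, against 48.7% of all genes. Pgk1, a glycolytic enzyme, was at -0.60 and 0.13. Of 29 genes of cholesterol and fatty acid synthesis, 16 were below 0 on both days and 3 above, against 27.9% and 25.6% of all genes. The list medians were -0.12 and -0.21, and Sqle, squalene epoxidase, had differences of -0.40 and -0.54.

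Inflammatory lists were spread around 0 or slightly below. Interferon response genes had medians of -0.13 at day 4 and 0.09 at day 8, with Cxcl10, a chemokine, at 1.06 and 0.27 and Ifit1 at -0.58 and -0.86. Their mean level at day 4 was 6.03 with SKO plus cluster C and 6.32 with SKO plus blank virus, against 6.74 and 6.92 without. MHC class I genes had medians of 0.03 and 0.08, and chemokines, complement and acute phase genes of -0.15 and -0.16. Saa3, an acute phase protein, was at 8.59 with SKO plus cluster C at day 8 and 7.50 with SKO plus blank virus, against 4.81 and 4.53 without, with differences of 0.50 and 0.82.

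Several lists of other processes and cell types had medians close to 0. Medians for ribosomal proteins were 0.05 at day 4 and -0.03 at day 8, for the p53 pathway 0.06 on both days, for glutathione, Nrf2 and serine synthesis 0.02 and 0.03, for endothelial markers 0.02 and 0.00, for adipocyte markers 0.12 and 0.00, and for neural markers 0.07 and 0.11. Trophoblast and primitive endoderm markers had medians of -0.12 and 0.06, although Tfap2c, a transcription factor of trophoblast and germ cells, had differences of 0.35 and 1.21 and the imprinted gene Peg10 of 0.62 and 1.16. Germ cell markers had medians of 0.02 and 0.31. Their highest member, Tdrd12, a piRNA factor, was at 5.08 with SKO plus cluster C at day 8 and 3.29 with SKO plus blank virus, against 3.46 and 3.64 without. Mean levels of the leukocyte list at day 8 were 4.33 with SKO plus cluster C and 4.41 with SKO plus blank virus, against 4.76 and 4.91 without, and its part in the values above was not tested.

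The same difference of differences for cluster B shares the 4 blank virus arrays, so the values of both are given side by side only. The pluripotency median was 0.68 at day 8 for cluster C and -0.07 for cluster B, and 0.04 and -0.37 at day 4. For the collagen and matrix list it was -0.38 for cluster C and -0.01 for cluster B, and for epithelial genes 0.42 and 0.22. Tdgf1 was at 3.92 for cluster C and 0.78 for cluster B at day 8, Nanog at 2.10 and 0.72, Dppa2 at 2.51 and -0.44, Nr0b1 at 2.42 and -0.70, and Krt8 at 1.08 and 1.04. Mir302b was at 4.16 for cluster C and 0.39 for cluster B. Other values lay close together. Fbxo15 was at 1.27 for cluster C and 1.09 for cluster B at day 4 and at 1.65 and 0.78 at day 8, and Nsmce3 at 1.18 and 0.88 at day 4 and at 1.19 and 0.80 at day 8. At day 4, Fgf23 was at -1.69 for both, Rnf208 at -2.03 and -2.01 and H2ac4 at 1.36 and 1.71. List medians at day 4 were 0.34 and 0.35 for histones and -0.27 and -0.21 for Wnt and IGF genes. The difference between the clusters was not tested.

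Promoters of the genes named as higher on both days or at day 8 were searched in RefSeq (GRCm38.p6) over 250 bases before the start, and 15 of the 20 matched. They are shown because Nanog, Cldn4 and Krt18 were among the higher genes of day 8 and hold motifs of factors that act in reprogramming. The motifs, sought on both strands, were TTTGCAT, an Oct site, followed after 1 base of any kind by ACAATG, a Sox site, and CACCTG, the E-box bound by Snai and Zeb repressors. Capitals mark the matches.
Nanog, chr6:122707239-122707488, plus strand: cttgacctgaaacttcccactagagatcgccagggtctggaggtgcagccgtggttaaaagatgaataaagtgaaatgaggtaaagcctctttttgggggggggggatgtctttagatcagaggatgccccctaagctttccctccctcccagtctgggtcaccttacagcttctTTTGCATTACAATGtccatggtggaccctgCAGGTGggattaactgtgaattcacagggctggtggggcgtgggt
Cldn4, chr5:134946935-134947184, minus strand: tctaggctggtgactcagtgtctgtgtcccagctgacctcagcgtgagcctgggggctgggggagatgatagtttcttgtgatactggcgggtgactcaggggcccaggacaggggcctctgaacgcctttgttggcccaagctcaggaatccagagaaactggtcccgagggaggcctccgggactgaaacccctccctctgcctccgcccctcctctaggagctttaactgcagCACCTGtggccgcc
Krt18, chr15:102027966-102028215, plus strand: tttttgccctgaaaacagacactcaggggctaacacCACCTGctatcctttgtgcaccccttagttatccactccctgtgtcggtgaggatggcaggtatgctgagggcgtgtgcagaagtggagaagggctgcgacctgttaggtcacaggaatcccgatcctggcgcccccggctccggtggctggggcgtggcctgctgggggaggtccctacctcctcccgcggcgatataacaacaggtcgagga
The composite Oct and Sox motif was found in 2 of 32851 promoters, both of Nanog, at position -75 from the start. The pattern leaves only 1 base free, so variants of such sites were not counted. Its rarity partly follows from that choice and does not set Nanog apart from the other named genes. CACCTG was found in 6 of the 15 named genes (40.0%), against 19.4% of all 27025 genes, and the 6 were Nsmce3, Krt8, Elovl4, Cldn4, Krt18 and Nanog. A match is a description of the letters and says nothing about binding in these cells.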

How the data were processed

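Per the labels' protocols, 100 ng of RNA from each of 12 MEF cultures was labelled with biotin for Affymetrix arrays that cover whole transcripts. The deposited log2 values of 28853 probe sets were used as given. The submitters' processing notes list RMA and Partek with no version. The genome build is not given in the sources used here. RMA brings arrays to a common distribution, which hides a shift common to most genes, and with no counts the number of arrays limits the precision.

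Probe sets were named from the platform annotation: 21789 had 1 symbol, 1621 several and 5443 none. Of these, 21698 matched RefSeq by Entrez identifier and 0 symbols changed. For 999 genes with several probe sets the brightest was kept, leaving 19938 genes. No 2 arrays were copies (smallest mean absolute difference 0.167).

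Tests used limma 3.58.1 (R 4.3.3) over all 12 arrays, with Benjamini-Hochberg adjustment over all genes and a threshold of 0.05, in 4 comparisons. The fit for both days had 8 coefficients and 4 residual degrees of freedom (4.94 prior ones, median SD 0.152). The fit by day had 10 coefficients and 2 residual degrees of freedom, in which only the arrays with cluster B or blank virus give the spread. Its day estimates can differ widely from the plain differences of the arrays. Med4 at day 8 had a plain difference of -1.06 and an estimate of -0.46, and Bdkrb1 at day 4 had 0.11 and -0.58. Adjusted p by day belong to the estimates. The sources do not state whether cultures were independent, so p-values measure only this spread, which may be technical. The fit for both days was tested on simulated data, and the fit by day was not. Tables and figures used Python 3.11.15, numpy 2.4.6, pandas 2.3.3 and matplotlib 3.10.9.

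The comparison, the gene lists and the rule for named genes were chosen with earlier results of these data known. Named were genes with 1 symbol that reached the all-gene median on at least 1 of the 8 arrays, leaving out names of predicted genes and clones, chemosensory receptor families and small RNAs: the 12 highest and 12 lowest by the smaller of the 2 days' differences, the 8 highest and 8 lowest at each day, genes past the threshold, in each list described the 3 members at either end, every pluripotency gene, the microRNAs and the delivered factors with Myc. Alternatives changed the scaling (quantile normalization or equal medians), left out dim genes, averaged the probe sets of a gene or tested each of them, used a trended and robust empirical Bayes step, kept only the 8 arrays, let the effect of cluster C vary by day, required a 1.5-fold change, or dropped single arrays.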

Additional observations from a re-analysis of the deposited data

Results flagged for a closer look

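The effect of cluster C on the microRNA signal differed between cultures with and without SKO at day 8 by the interaction test in limma. The difference was 3.96 for Mir302b and 3.53 for Mir302a, each from 1 array per condition, with 3 of the 4 values dim. Both were higher with SKO, and both calls were lost under quantile normalization.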

How the results depend on the processing

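For the mean of both days the count of genes past the threshold was 0 and stayed 0 under 9 other ways of processing, and it ran from 0 to 5 with 1 array left out. At day 8 the count of 2 became 0 after quantile normalization and 0 with every probe set tested, 6 with the filter on dim genes (Mir302a to Mir302d, Dppa2 and Fam169a), and 14 with a mean-variance trend and robust empirical Bayes, among them Tdgf1, Dppa5a, Sox2, Nr0b1 and Slc2a3. Fam169a was named after its value was seen. Among the 8 arrays, Mir302a and Dppa2 reached the filter's 5.32 only on the day 8 array with SKO plus cluster C. Mir302c and Mir302d reached it only on arrays with SKO plus cluster C. They entered the filtered test through the group in which they are high, so these calls are no independent evidence. Leaving out 1 of the 8 arrays without cluster C, an alternative chosen after seeing the data, gave 0 to 4 at day 8. Those 4 were Mir302a, Mir302b, Mir302c and Tdgf1, without either cluster B array or the day 4 blank virus array of the arm with SKO. For day 8 these leave-outs are the same fit, with identical estimates and SEs, because each leaves that arm with no spread of its own. The same holds for the matching arrays of the arm without SKO. They are therefore not separate checks. At day 4 and for the difference between days the count stayed 0 under the 6 alternatives run.

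Past the fold thresholds, also tried after seeing the data, the filter on dim genes left 38 higher and 48 lower genes at day 4, 85 and 26 at day 8, and 48 and 39 on both days, since fewer genes are counted. Quantile normalization, equal medians and the mean over probe sets moved these counts by less than 1.5 times. Of 173 values of the 29 genes and microRNAs named over both days, 0 changed sign under other processing, and 0 of 348 did with 1 array left out. The genes were chosen for large differences of the same sign on both days, and the microRNAs were above 0 on both. These counts were thus largely fixed by the choice and say little about stability. Of 360 list medians under other processing 18 changed sign, 1 of them among the 216 of at least 0.1 in size, that of neural markers at day 8 (-0.09 with the filter on dim genes). That filter also gave -0.39 for leukocyte markers at day 4, -0.28 for germ cell markers at day 4, 0.22 for histones at day 4, -0.19 for endothelial and -0.18 for adipocyte markers at day 8, and quantile normalization gave 0.08 for ribosomal proteins at day 8. Scaling moved the median of all genes by at most 0.0433. No paired analysis was possible because each condition has 1 array and no replicate number is shared beyond it.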
